A study of Mus musculus with 34 samples.

Results

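Livers of Pdgf-c transgenic mice that ate a diet with 0.06% peretinoin were compared between week 48 (5 arrays) and week 20 (5 arrays), which describes how gene expression moved between those ages under the drug. These are 10 of the 34 arrays of the series, chosen by their labels alone and not by any measured value. RNA of each liver was measured on an Affymetrix Mouse Genome 430 2.0 array, 1 array per sample, as probe set signals on a linear scale.

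The peretinoin-fed groups carried the transgene for platelet-derived growth factor C and were fed the drug diet from weaning at week 4 until killed at week 48 or week 20. The groups set beside them were transgenics of the same kind given basal diet (5 arrays at week 48, 5 at week 20) and non-transgenic C57/B6 wild-type mice (4 arrays at week 48, 5 at week 20), so each of the 3 age comparisons has its own arrays. The promoter and the cell type that drive the transgene are not given in the sources used here, and the labels call all of these samples liver. Low Xist (31.7 to 91.7 at week 48, 55.2 to 121.3 at week 20) and high Eif2s3y, a Y-linked gene (1513.7 to 2293.0 and 1707.2 to 2150.0), were measured in all 10 peretinoin arrays. Alb, which encodes albumin, the main secreted protein of hepatocytes, lay between 19640.7 and 30461.6 at week 48 and between 28520.0 and 41903.6 at week 20.

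Platelet-derived growth factor C is a ligand of the PDGF receptors on hepatic stellate cells, the cells that make most of the collagen of a scarred liver, and mice that overproduce it develop fibrosis and later liver tumours. Peretinoin is an acyclic retinoid, a synthetic relative of vitamin A that acts through nuclear retinoid receptors and has been studied as a drug to prevent liver cancer. Liver genes also vary with sex, through the pattern of growth hormone release, and with the hour of the day, through the circadian clock.

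Some arrays stood apart before any age comparison. Skeletal muscle transcripts were high in array 1 of week 48 and in arrays 5 and 3 of week 20, where the mean log2 signal of 11 muscle genes was 13.12, 12.47 and 8.87, against 5.18 to 5.70 in the other 7 peretinoin arrays. The 3'/5' signal ratio of Actb, a measure of how complete the labelled RNA was, was 1.94, 1.60, 1.71, 1.55 and 1.42 at week 48 and 2.66, 3.31, 2.54, 2.38 and 1.70 at week 20, so it was lower in most week 48 arrays. Arrays numbered 4 and 5 differed from arrays 1 to 3 in clock genes, and in opposite ways at the 2 ages. Dbp, a clock output gene, had 3432.3, 6853.3, 4109.1, 360.5 and 608.6 at week 48 and 2547.5, 4611.3, 4801.4, 8639.8 and 8584.7 at week 20. Arntl, which encodes the clock activator BMAL1, ran the other way, with 300.7, 258.0, 339.0, 924.7 and 735.7 at week 48 and 492.1, 323.1, 434.7, 112.9 and 81.3 at week 20. Of 15 measured clock genes, 11 had arrays 4 and 5 outside the range of arrays 1 to 3 at both ages and on opposite sides. The labels give no hour of sampling. In the groups set beside them, the muscle mean was 13.31 in array 4 of basal-diet week 48 and 11.32 in array 4 of wild-type week 48. The mean log2 signal of pancreatic acinar genes was 11.47 in array 4 of basal-diet week 48 and 11.12 in array 5 of basal-diet week 20. It was 5.78 to 6.55 in the peretinoin arrays. The counts of called genes, the list counts and medians, and the named genes' age changes under peretinoin were therefore recomputed in 3 ways. These left out the arrays with muscle transcripts, left out peretinoin arrays 4 and 5 of both ages, or took the Actb ratio as a covariate. All 3 were chosen after seeing the data. The Actb ratio went largely with age, and leaving out arrays 4 and 5 left only arrays 1 to 3 of each age. Calls can be lost in either setting through lower precision alone, and why a call was lost was not tested.

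**Figure D1:**
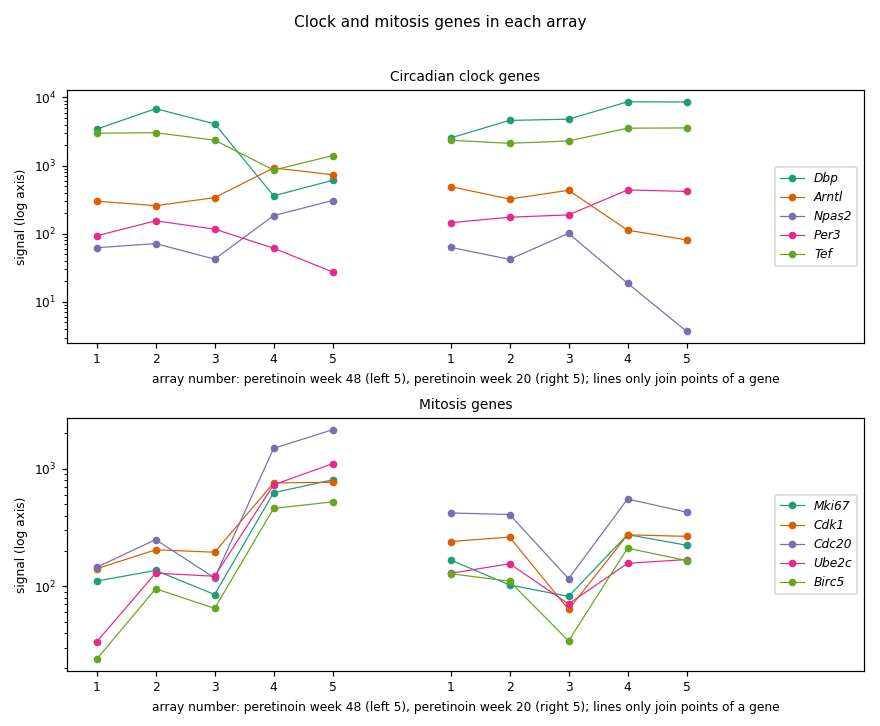
Signals (log axis) of 5 clock genes and 5 mitosis genes in each peretinoin array, with week 48 arrays 1 to 5 on the left and week 20 arrays 1 to 5 on the right, and lines that only join the points of a gene. Clock genes in arrays 4 and 5 lie apart from arrays 1 to 3 in opposite ways at the 2 ages, and the mitosis genes are highest in arrays 4 and 5 of week 48.

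Between week 48 and week 20 of peretinoin feeding, 1762 of 13099 genes differed (13.5%; limma, Benjamini-Hochberg adjusted p under 0.05), 640 higher (4.89%) and 1122 lower (8.57%). The changes were mostly small: 97 of the genes that rose and 172 of those that fell changed at least 2-fold, and the median log2 change over all genes was -0.05. Some genes of lipid storage, acute phase proteins and macrophage markers were among the rises, and some matrix, mesothelial and male-biased liver genes among the falls. The 5 and 5 arrays did not overlap in 978 genes (7.47%), 305 higher at week 48 (2.33%) and 673 lower (5.14%). The split depended on the scaling: when each array was centred on its median, the median change of all genes became 0.16 and 84.3% of the called genes were higher (1895 of 2247), against 36.3% as reported. Quantile normalisation gave 45.2% higher. The number called was 617 without arrays 4 and 5, 424 with the Actb ratio as a covariate, 573 with the 10 arrays fitted alone, and 1125 without array 5 of week 48. The labels do not say whether the samples of a group came from separate litters or days. The p-values rest on the spread between arrays within groups, pooled over all 34 arrays of the series.

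The largest rise without overlap was that of Lcn2, which encodes lipocalin 2, an iron-siderophore binding protein of the acute phase. Lcn2 had signals of 5449.7, 6673.8, 9863.3, 5107.0 and 21215.7 at week 48 and 918.9, 452.4, 1587.2, 530.8 and 1610.7 at week 20. All week 48 arrays lay above all week 20 arrays, a log2 change of 3.19 ± 0.65 (SE; adjusted p = 0.00177). Acnat2, a peroxisomal acyltransferase, had 1617.4, 708.7, 632.7, 884.2 and 622.9 at week 48 and 288.0, 84.6, 450.1, 173.2 and 185.4 at week 20 (log2 change 1.93 ± 0.39, adjusted p = 0.00152). Ceacam1, a cell adhesion protein that takes part in the uptake of insulin by hepatocytes, had 4813.4, 5133.8, 4192.2, 1667.8 and 4696.8 at week 48 and 1602.0, 1596.5, 1353.8, 1178.8 and 1148.1 at week 20. Array 4 of week 48 stood near the week 20 arrays, and the other 4 stood far above all of them (log2 change 1.48 ± 0.25, adjusted p = 0.000429). Of 7 Ceacam1 probe sets, 6 gave log2 changes of 0.74 to 1.64 and 1 gave -0.07, and the one used is of a kind (suffix x) that can bind related transcripts.

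Other genes among the 15 largest rises without overlap encode serpins (Serpinb1a, an inhibitor of neutrophil proteases, log2 change 2.48 ± 0.51, and Serpinb6b, 1.63 ± 0.32), the acute phase protein Orm3 (2.27 ± 0.60) and the chemokine Cxcl14 (2.11 ± 0.59). A second Cxcl14 probe set gave 0.83. Slc22a29 (1.79 ± 0.47) and Slc22a27 (1.86 ± 0.56), a pair of related anion transporter genes whose probe sets can share transcripts, were highest in week 48 arrays 4 and 5. Slc22a29 had 1428.5 and 1067.2 there, against 262.1 to 340.1 in week 48 arrays 1 to 3 and 62.6 to 219.4 at week 20. Mtnr1a, a melatonin receptor gene, showed the same order, with 866.2 and 1343.0 in arrays 4 and 5 of week 48, 247.0 to 397.0 in arrays 1 to 3, and 81.6 to 237.1 at week 20. Vapb, a protein of endoplasmic reticulum contact sites, had 2044.3, 1453.2, 1507.6, 1070.6 and 1401.4 at week 48 and 793.2, 311.1, 470.2, 343.8 and 329.8 at week 20 (log2 change 1.76 ± 0.31, adjusted p = 0.000553). The 2 dimmer Vapb probe sets gave -0.19 and -0.17, so the rise was seen in 1 of 3. Il22ra1, a subunit of the interleukin 22 receptor (1.39 ± 0.40), and Scube1, a secreted protein with EGF domains (1.37 ± 0.34), completed the rises together with Cidea and Cd36, described with the lipid genes. Of the 15 rises, 13 were also called without the muscle arrays, 7 without arrays 4 and 5 (Acnat2, Cd36, Ceacam1, Cidea, Lcn2, Serpinb6b and Vapb) and 3 with the Actb ratio as a covariate (Acnat2, Ceacam1 and Vapb).

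Among the falls, Abi3bp, an extracellular matrix protein, had the smallest adjusted p of the genes named here. Abi3bp had 114.2, 38.6, 46.0, 122.7 and 36.1 at week 48 and 458.7, 459.4, 447.5, 395.9 and 629.2 at week 20. Every week 48 array lay below every week 20 array, with a log2 change of -2.62 ± 0.25 (adjusted p = 6.27e-08). Itgb8, the integrin subunit that helps to release active TGF-beta, had 243.8, 85.1, 63.3, 126.7 and 46.9 at week 48 and 332.8, 481.9, 509.5, 458.4 and 797.1 at week 20 (log2 change -2.18 ± 0.31, adjusted p = 6.18e-05). Epha3, an ephrin receptor, had 37.2, 5.4, 15.5, 28.1 and 21.8 at week 48 and 165.0, 250.6, 92.2, 69.3 and 180.7 at week 20 (log2 change -2.10 ± 0.28, adjusted p = 3.46e-05). Mgp, the matrix Gla protein that inhibits calcification, had 732.0, 167.2, 494.4, 350.0 and 238.9 at week 48 and 915.9, 1150.0, 1521.3, 745.2 and 1969.4 at week 20. Its highest week 48 array was just under its lowest week 20 array (log2 change -1.72 ± 0.35, adjusted p = 0.00156).

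**Figure D2:**
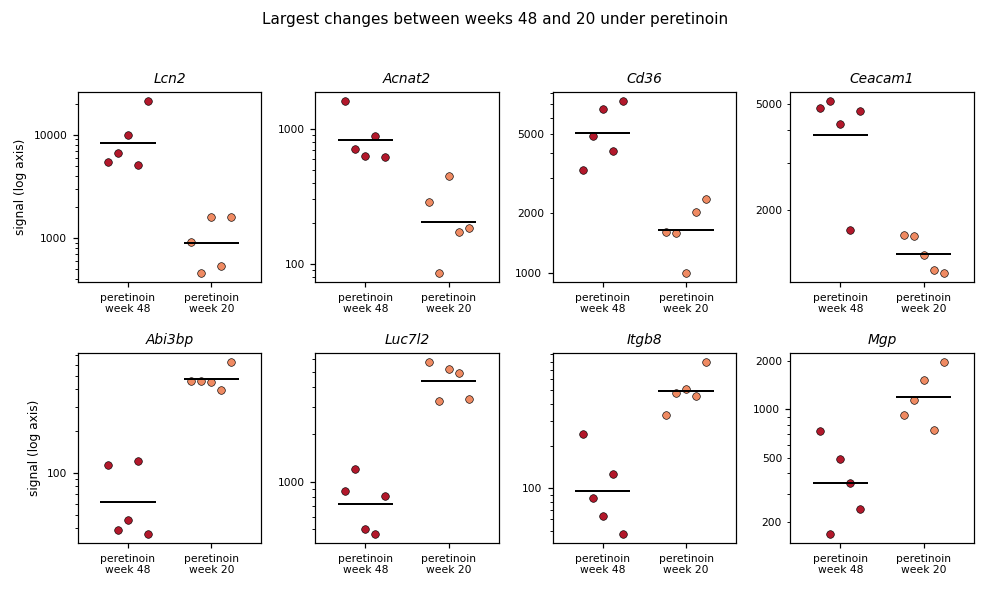
Signals (log axis) of 4 genes that rose and 4 that fell, in peretinoin-fed transgenic liver at week 48 (left, 5 points) and week 20 (right, 5 points), with a line at each group's geometric mean. In each of the 8 genes the 2 ages do not overlap, and Ceacam1 has 1 week 48 array (1667.8) close to the week 20 arrays.

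Luc7l2, a splicing factor of the U1 particle, had 877.0, 1212.4, 499.1, 463.3 and 814.3 at week 48 and 5767.1, 3268.9, 5232.6, 4895.5 and 3366.2 at week 20 (log2 change -2.57 ± 0.40, adjusted p = 0.000163). The 6 Luc7l2 probe sets were all negative but ranged from -2.57 to -0.15, so the size depended on the part of the transcript probed. Cdh11, a cadherin of mesenchymal cells (-1.85 ± 0.40), and Sned1, a matrix protein (-1.78 ± 0.37), fell without overlap as well. Tnnt2, the cardiac form of troponin T, did so too (-1.91 ± 0.59), with 312.7 in array 5 of week 20, an array with muscle transcripts, and lost its call without the muscle arrays (adjusted p = 0.0947). Cd37, a tetraspanin of B cells (-1.74 ± 0.34), Dis3l2, an RNA exonuclease (-1.80 ± 0.41), Rbm45, an RNA-binding protein (-1.72 ± 0.55), and the poorly characterised Prap1 (-1.79 ± 0.41) were further members. A second Dis3l2 probe set of similar brightness gave only -0.215. Ces5a, a carboxylesterase (-2.66 ± 0.75), Serpina4-ps1, a serpin pseudogene (-2.63 ± 0.79), and Ugt2b38, a glucuronosyltransferase (-2.18 ± 0.63), made up the 15. Of these falls, 13 were called without the muscle arrays, 7 without arrays 4 and 5 (Abi3bp, Cd37, Epha3, Itgb8, Luc7l2, Mgp and Prap1) and 7 with the covariate (Abi3bp, Cdh11, Epha3, Itgb8, Luc7l2, Mgp and Sned1). Over 105 named genes called in this comparison, 11 stayed called under all of 20 settings, a tally that leaves out the replicate block (50 of the 105 called), no filter on dim probe sets (87 of 105) and the upper 40% of probe sets (90 of the 90 tested there): Abi3bp, Acnat2, Adamtsl2, Ceacam1, Cfb, Eln, Epha3, Itgb8, Luc7l2, Mgp and Ogt.

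Among 6 PDGF ligand and receptor genes, 1 was called, lower, against 8.57% of all genes. The median log2 change of the 6 was -0.52. Pdgfc, the gene of the transgene, had 632.0, 603.0, 506.4, 624.9 and 646.5 at week 48 and 547.5, 353.2, 744.2, 380.5 and 346.7 at week 20, with arrays 1 and 3 of week 20 inside or above the week 48 range (log2 change 0.39 ± 0.20, adjusted p = 0.194). It was 1.26 in basal-diet mice (adjusted p = 0.000109), and the difference between the 2 age changes, -0.87, did not pass (adjusted p = 0.136). The labels do not say whether the Pdgfc probe set reads transcripts of the transgene. A ligand of PDGF receptor alpha, Pdgfa, fell by 0.60 ± 0.18 on the log2 scale (adjusted p = 0.027). The receptors Pdgfra, -0.77 ± 0.29 (adjusted p = 0.0756), and Pdgfrb, -0.65 ± 0.23 (adjusted p = 0.0564), did not pass, but both were called with the Actb ratio as a covariate (adjusted p = 0.00834 and 0.0312). Pdgfd, a ligand of PDGF receptor beta, was at -0.45 ± 0.19 (adjusted p = 0.105), and Pdgfb at 0.26 ± 0.22 (adjusted p = 0.473). With the covariate 4 of the 6 were lower (median -1.11), without arrays 4 and 5 or without the muscle arrays 0 were called, and after median centring 1 was higher and 0 lower.

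Extracellular matrix genes were lower at week 48, where they changed: 0 of 22 measured members rose, 5 fell, and the median log2 change was -0.38, against -0.05 over all genes. The share of all genes that fell was 8.57%. Col3a1, the fibrillar collagen of early scar, had 2052.6, 1721.1, 3315.3, 4400.7 and 3333.5 at week 48 and 5770.7, 6313.5, 4250.8, 4491.0 and 5426.6 at week 20. Array 4 of week 48 overlapped the week 20 range (log2 change -0.89 ± 0.25, adjusted p = 0.0168). Dpt, which encodes dermatopontin, a protein that binds collagen and decorin, had 548.5, 92.4, 240.4, 481.3 and 159.6 at week 48 and 1553.5, 1140.1, 1069.2, 394.3 and 1523.4 at week 20 (log2 change -1.97 ± 0.45, adjusted p = 0.00428), and 1 week 20 array lay within the week 48 range. Thbs2, a matricellular thrombospondin, had 294.8, 79.6, 123.3, 198.4 and 70.7 at week 48 and 353.3, 388.4, 432.9, 309.9 and 317.2 at week 20, without overlap (log2 change -1.31 ± 0.25, adjusted p = 0.000955).

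Eln, which encodes elastin, fell by 0.95 ± 0.21 without overlap (adjusted p = 0.00302), and Col6a1 fell by 0.90 ± 0.30 (adjusted p = 0.0455). Of 20 other settings, Col6a1 kept its call in 8, Col3a1 in 15, Dpt and Thbs2 in 19, and Eln in 20. Col3a1 and Col6a1 both lost theirs without the muscle arrays. Col1a1, the main collagen of fibrous tissue, had 276.1, 279.9, 498.8, 625.0 and 447.6 at week 48 and 583.1, 449.9, 380.0, 822.5 and 612.2 at week 20, an overlapping spread (-0.43 ± 0.29, adjusted p = 0.352). Adamtsl2, a microfibril-associated regulator of TGF-beta, had 401.5, 243.4, 510.6, 388.7 and 461.4 at week 48 and 1079.4, 1028.5, 1136.3, 862.0 and 1140.4 at week 20 (log2 change -1.38 ± 0.25, adjusted p = 0.000631). Basal-diet mice showed 0 rises and 6 falls in the same 22 matrix genes (median -0.51), and wild-type mice 0 and 0 (median 0.18), where over all genes 5.99% rose and 9.76% fell on the basal diet and 2.41% rose and 4.47% fell in wild type. The direction of the peretinoin list depended on the scaling, with 3 members higher and 3 lower after median centring. The counts were 0 and 4 without arrays 4 and 5, and 0 and 5 with the covariate. Without the muscle arrays they were 0 and 3, at a median of -0.23.

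Matrix-degrading enzymes and their inhibitors gave 2 of 12 higher and 1 lower, against 4.89% and 8.57% of all genes. Mmp12, the macrophage elastase, had 10.5, 337.9, 214.6, 492.5 and 238.1 at week 48 and 12.1, 31.4, 23.6, 29.2 and 117.9 at week 20, with array 1 of week 48 as low as the week 20 arrays (log2 change 1.95 ± 0.52, adjusted p = 0.0127). Mmp14, a membrane-bound collagenase, rose by 0.55 ± 0.16, and Timp2, an inhibitor of these enzymes, fell by 0.90 ± 0.22. Timp1, the inhibitor most used as a fibrosis marker, did not pass (0.57 ± 0.31, adjusted p = 0.229). The list had 0 called without arrays 4 and 5, and 0 higher and 2 lower with the covariate (median -0.19, against 0.17 as reported), and both Mmp12 and Mmp14 lost their calls there and with these arrays alone. Of 14 TGF-beta pathway genes 0 rose and 2 fell: Ltbp3, which binds latent TGF-beta, by 0.74 ± 0.16, and the receptor gene Tgfbr1 by 0.30 ± 0.10, whose sign turned when all its probe sets were averaged (0.26, adjusted p = 0.353). Plod1, a lysyl hydroxylase of collagen maturation, was the 1 of 9 cross-linking genes called, at 0.61 ± 0.14.

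Of 13 stellate cell and myofibroblast markers 0 rose and 2 fell (median -0.45): Hand2, a transcription factor of stellate cells (-1.16 ± 0.33, adjusted p = 0.017), and Lrat, the enzyme that stores retinol as retinyl esters (-0.78 ± 0.27, adjusted p = 0.0494). Lrat had 320.8, 712.2, 830.8, 1083.3 and 586.3 at week 48 and 880.8, 1028.1, 1182.9, 1391.6 and 1269.6 at week 20, and lost its call without the muscle arrays (adjusted p = 0.337). Acta2, the actin of activated myofibroblasts, showed overlapping groups (0.05 ± 0.32, adjusted p = 0.936). The stellate count was 0 without the muscle arrays, without arrays 4 and 5, with these arrays alone and with mean probe sets, and 3 lower with the covariate. Of 5 mesothelial markers 0 rose and 2 fell (median -0.88), Upk3b at -1.86 ± 0.54 (adjusted p = 0.0209) and Gpm6a at -1.36 ± 0.38 (adjusted p = 0.0159), against 8.57% of all genes lower. Without arrays 4 and 5, 0 of the 5 were called. In these bulk samples fewer cells of a type and less RNA per cell cannot be told apart.

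Macrophage markers were higher at week 48 in 4 of the 5 livers. Summed over 9 resident Kupffer cell markers the signal was 9510, 26364, 25533, 13838 and 23398 at week 48 and 10455, 11111, 11829, 13461 and 9730 at week 20. Array 1 of week 48, the one with muscle transcripts, was below every week 20 array, and array 4 was just above the highest of them. Of the 9 markers 3 rose and 0 fell (median 1.005), against 4.89% and 8.57% of all genes. The 3 were Cd5l, a secreted macrophage protein (1.99 ± 0.51, adjusted p = 0.0103), Marco, a scavenger receptor (1.80 ± 0.50, adjusted p = 0.0163), and Vsig4, a complement receptor of Kupffer cells (1.36 ± 0.46, adjusted p = 0.0447). Clec4f, the lectin specific to Kupffer cells, split the week 48 livers, with 237.8, 3422.9, 2396.1, 161.1 and 2636.7 at week 48 and 596.1, 708.9, 248.8, 489.7 and 407.0 at week 20. Arrays 1 and 4 of week 48 were below the whole week 20 range, arrays 2, 3 and 5 far above it, and the change did not pass (1.06 ± 0.62, adjusted p = 0.275). Without the muscle arrays 4 Kupffer markers were called (median 1.399). Leaving out arrays 4 and 5 gave 0 called at a median of 1.234, and the covariate gave 0 at a median of 0.551. On the basal diet 4 of the 9 rose and 0 fell (median 0.835), and in wild type 0 and 0 (median -0.12). Over all genes 5.99% rose and 9.76% fell on the basal diet, and 2.41% rose and 4.47% fell in wild type.

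Markers of recruited macrophages gave sums of 8318, 12577, 13696, 17230 and 18578 at week 48 and 6898, 6463, 5746, 6672 and 8636 at week 20 over 11 genes. Of these genes 3 rose and 0 fell (median 0.88), against 4.89% and 8.57% of all genes. Cd9, a tetraspanin of scar macrophages, had 1790.1, 2816.2, 2661.1, 4509.3 and 4685.4 at week 48 and 1286.8, 1256.6, 1262.6, 1114.9 and 1510.3 at week 20, without overlap (1.26 ± 0.24, adjusted p = 0.00122). Mpeg1, which encodes perforin-2 of macrophages, did not overlap either (0.95 ± 0.19, adjusted p = 0.00135), and Lgals3, or galectin-3, rose by 1.28 ± 0.32 (adjusted p = 0.00882). Chemokine genes gave 2 rises and 1 fall of 12, near the shares of all genes for falls (8.57%) and beside 4.89% for rises. The called members were Cxcl14, Ccl6 (1.46 ± 0.35), and Cxcl12, the stromal ligand of CXCR4 (-0.81 ± 0.17, adjusted p = 0.00178). T and NK cell markers gave 0 rises and 0 falls of 10 (median -0.38), neutrophil markers 0 and 0 of 7, and B and plasma cell genes 1 rise of 10 (Sdc1, 0.44 ± 0.15), a gene that hepatocytes express too. With the covariate 0 of the 11 recruited macrophage markers were called, and their median was -0.04. It was 0.82 without arrays 4 and 5, with 0 called. Basal-diet mice had 2 rises and 0 falls in these 11 (median 0.52), and wild-type mice 0 and 0 (median -0.01). The shares of all genes that rose and fell were 5.99% and 9.76% on the basal diet and 2.41% and 4.47% in wild type.

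Acute phase proteins rose in part: 3 of 19 measured members were higher and 0 lower (median 0.12), against 4.89% and 8.57% of all genes. Orm2, an orosomucoid, had 6146.8, 6757.3, 10837.0, 2963.7 and 11789.9 at week 48 and 1252.2, 735.8, 5181.0, 436.6 and 2088.6 at week 20 (log2 change 2.34 ± 0.70, adjusted p = 0.0242), with array 3 of week 20 inside the week 48 range. Apcs, the gene of serum amyloid P, rose by 0.72 ± 0.24 (adjusted p = 0.0381), and Lcn2 was the third member. Cfb, complement factor B, had 12312.5, 11257.8, 13050.8, 11880.0 and 13747.4 at week 48 and 8926.4, 9521.6, 8023.3, 8134.1 and 7423.5 at week 20, a small rise without overlap (0.57 ± 0.10, adjusted p = 0.000499). Without arrays 4 and 5 the acute phase count was 1 of 19 and the median turned to -0.06. On the basal diet 3 of the 19 rose and 0 fell (median 0.02), and in wild type 0 and 0 (median -0.04). Over all genes 5.99% rose and 9.76% fell on the basal diet, and 2.41% rose and 4.47% fell in wild type.

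Mitosis genes were not called, and they split the week 48 livers. Mki67, which marks cycling cells, had 110.7, 136.3, 85.0, 626.7 and 805.5 at week 48 and 167.5, 102.5, 81.9, 275.5 and 223.6 at week 20 (log2 change 0.56 ± 0.50, adjusted p = 0.497). Cdk1, the kinase of mitotic entry, had 140.8, 204.4, 194.9, 758.5 and 767.7 at week 48 and 240.1, 262.3, 63.4, 273.9 and 266.0 at week 20 (0.65 ± 0.45, adjusted p = 0.357). In all 16 measured mitosis genes, arrays 4 and 5 of week 48 lay above arrays 1 to 3 and above every week 20 array. Summed over the 16, the signal was 1130, 1892, 1622, 7999 and 10446 at week 48 and 2360, 2045, 916, 3252 and 2755 at week 20. For scale, Mki67 averaged 538 ± 367 in the 5 tumours (SD) and ranged from 98.8 to 255.8 in basal-diet week 48 livers. The median of the list was 0.54, but -0.12 without arrays 4 and 5 and -0.51 with the covariate. Arrays 4 and 5 are also those with the other clock gene levels, whose part in this result was not tested.

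Of 11 CDK inhibitors and p53 targets 1 rose and 1 fell, against 4.89% and 8.57% of all genes. Cdkn1a, the p21 inhibitor gene, had 311.3, 751.0, 276.3, 1763.4 and 2382.5 at week 48 and 330.8, 232.2, 180.3, 319.0 and 443.7 at week 20, again highest in arrays 4 and 5 (1.38 ± 0.47, adjusted p = 0.0451). Cdkn1a was called in 9 of 20 other settings, and lost its call with the covariate (adjusted p = 0.886), with these arrays alone (adjusted p = 0.147), and without any single array among 2, 4 and 5 of week 48 and 1 to 4 of week 20. Cdkn1b, the p27 inhibitor gene, fell by 0.70 ± 0.18 (adjusted p = 0.0114). DNA replication genes gave 0 calls of 16 and G1 cyclins and kinases 0 of 8, with Ccnd1 at -0.06 ± 0.34. Of 13 oncofetal and liver tumour markers 2 rose and 1 fell, against the same 4.89% and 8.57%. Ly6d, a surface protein, had 256.0, 4813.4, 2812.5, 2374.3 and 11919.4 at week 48 and 214.1, 180.6, 122.0, 645.5 and 357.0 at week 20, so that array 1 of week 48 stayed within the week 20 range and the other 4 lay well above it (3.21 ± 0.58, adjusted p = 0.000761). Golm1, a Golgi protein used as a serum marker of liver cancer, rose by 1.23 ± 0.41, and Mdk, the growth factor midkine, fell by 0.64 ± 0.18. Afp, alpha-fetoprotein, had 224.3, 181.5, 200.6, 622.2 and 135.0 at week 48 and 393.7 to 468.7 at week 20, with array 4 alone above (-0.89 ± 0.36, adjusted p = 0.0976).

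Male-biased liver genes fell in the peretinoin-fed mice: 7 of 14 measured members were lower (8.57% over all genes) and 0 higher (median -0.80). The group is made of genes that the male pattern of growth hormone release keeps high. Hsd3b5, a steroid dehydrogenase of male liver, had 384.0, 63.4, 104.2, 19.7 and 6.3 at week 48 and 2808.9, 3474.0, 17097.3, 9839.0 and 284.2 at week 20. Array 5 of week 20 lay inside the week 48 range and the other 4 week 20 arrays far above it (log2 change -5.46 ± 1.16, adjusted p = 0.00258). Slco1a1, an organic anion transporter, had 2741.3, 214.2, 1727.4, 333.5 and 302.2 at week 48 and 3516.7, 3985.9, 7157.4, 7692.5 and 2580.9 at week 20 (-2.80 ± 0.58, adjusted p = 0.00202). Cyp2u1, a cytochrome P450, had 92.6, 92.6, 116.8, 180.1 and 53.7 at week 48 and 401.0, 422.3, 394.2, 217.6 and 206.3 at week 20, without overlap (-1.501 ± 0.29, adjusted p = 0.00108). Ugt2b38, Keg1, an acyltransferase-like gene (-1.09 ± 0.31), Nudt7, a peroxisomal coenzyme A hydrolase (-0.96 ± 0.33), and Mup3, a major urinary protein (-0.64 ± 0.20), were the other members that fell.

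In the same 14 genes basal-diet mice had 1 rise and 0 falls (median 0.51) and wild-type mice 0 and 0 (median -0.02). The shares of all genes that rose and fell were 5.99% and 9.76% on the basal diet and 2.41% and 4.47% in wild type. The difference between the peretinoin and the basal-diet age change did not pass for Hsd3b5 (-5.72, adjusted p = 0.0883), Slco1a1 (-2.59, adjusted p = 0.125), Keg1 (-1.54, adjusted p = 0.0854) or Nudt7 (-1.77, adjusted p = 0.062). At week 20 Hsd3b5 averaged 6701 ± 6790 in peretinoin-fed and 1864 ± 2960 in basal-diet transgenic mice (SD, n = 5 each). Of the 7 female-biased genes measured 0 were called (median 0.37). The sum of the 14 male-biased genes was 90038, 85629, 89194, 75875 and 63118 at week 48 and 101911, 130407, 167461, 140016 and 82146 at week 20. Ghr, the growth hormone receptor gene, fell by 0.52 ± 0.12 (adjusted p = 0.00423) and Igf1r by 0.58 ± 0.19 (adjusted p = 0.0446). Without arrays 4 and 5, 2 of the 7 male-biased falls were called (Hsd3b5 and Cyp2u1), and with the Actb ratio as a covariate 0 were.

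**Figure D3:**
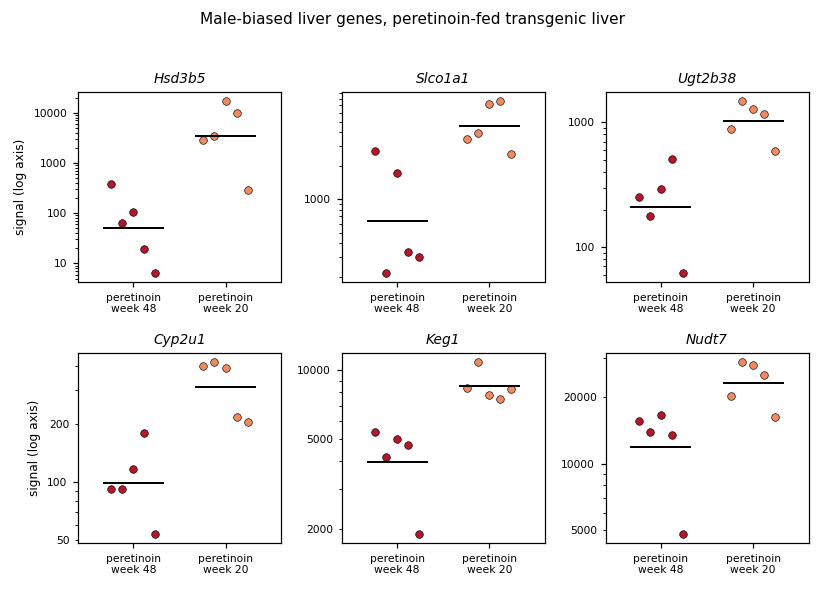
Signals (log axis) of 6 male-biased liver genes in peretinoin-fed transgenic liver at week 48 (left) and week 20 (right), 5 arrays each, with a line at each group's geometric mean. Ugt2b38, Cyp2u1 and Keg1 do not overlap between ages, and Hsd3b5, Slco1a1 and Nudt7 each have 1 or 2 arrays inside the other group's range.

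Promoter windows are shown for 2 of the male-biased genes that fell and 2 of the acute phase genes that rose, because both groups are known targets of STAT factors, which bind the letters TTCNNNGAA. Windows of 300 bases, from 250 before to 50 after the start, were taken from RefSeq on GRCm38.p6 and are written 5′ to 3′ on the gene's strand, with matches to TTCNNNGAA in capitals. The motif is its own reverse complement, and no other motif was searched.
Slco1a1, chr6:141946913-141947212, minus strand: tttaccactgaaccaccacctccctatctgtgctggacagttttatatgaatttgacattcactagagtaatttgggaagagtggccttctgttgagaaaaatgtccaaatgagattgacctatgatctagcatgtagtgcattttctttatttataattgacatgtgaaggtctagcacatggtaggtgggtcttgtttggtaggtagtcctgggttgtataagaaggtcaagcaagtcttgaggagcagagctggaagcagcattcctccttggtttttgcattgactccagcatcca
Keg1, chr19:12695540-12695839, plus strand: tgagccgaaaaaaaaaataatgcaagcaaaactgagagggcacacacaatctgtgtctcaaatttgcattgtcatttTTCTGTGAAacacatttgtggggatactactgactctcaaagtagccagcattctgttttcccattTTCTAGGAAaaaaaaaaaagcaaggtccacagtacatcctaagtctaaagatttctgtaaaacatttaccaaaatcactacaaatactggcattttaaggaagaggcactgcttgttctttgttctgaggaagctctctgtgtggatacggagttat
Lcn2, chr2:32387690-32387989, minus strand: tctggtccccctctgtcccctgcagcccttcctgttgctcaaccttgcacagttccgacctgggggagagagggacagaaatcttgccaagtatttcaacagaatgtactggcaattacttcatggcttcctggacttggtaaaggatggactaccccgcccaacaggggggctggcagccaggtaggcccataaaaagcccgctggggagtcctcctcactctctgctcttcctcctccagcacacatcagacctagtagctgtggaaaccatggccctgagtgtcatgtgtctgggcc
Apcs, chr1:172895005-172895304, minus strand: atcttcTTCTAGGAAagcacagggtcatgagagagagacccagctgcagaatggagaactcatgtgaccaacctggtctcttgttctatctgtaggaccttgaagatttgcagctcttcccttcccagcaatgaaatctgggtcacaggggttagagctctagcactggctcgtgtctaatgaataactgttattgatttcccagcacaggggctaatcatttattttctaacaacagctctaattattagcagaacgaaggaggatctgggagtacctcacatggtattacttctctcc
Keg1 has matches whose first bases lie 173 and 107 bases before the start, and Apcs has one 244 bases before it. Of the 7 male-biased genes that fell, 6 were matched by symbol (all but Cyp2u1) with 7 windows, of which 1 held the motif. Among Orm2, Lcn2, Apcs and Orm3 it was 1 of 4 windows. The motif was in 8.3% of all 32851 windows and in 6.94% of the 13490 windows of tested genes.

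Genes of lipid droplets and fatty acid uptake gave 3 rises and 1 fall of 14, against 4.89% and 8.57% of all genes. Cd36, the fatty acid translocase, had 3267.4, 4871.3, 6675.1, 4114.5 and 7287.1 at week 48 and 1599.4, 1581.7, 995.7, 2016.1 and 2356.8 at week 20, without overlap (1.60 ± 0.29, adjusted p = 0.000693). Cidea, a lipid droplet protein, had 58.8, 1791.0, 1308.9, 77.8 and 209.6 at week 48 and 5.8, 11.7, 50.5, 57.3 and 32.4 at week 20 (2.94 ± 0.77, adjusted p = 0.0115). Arrays 2 and 3 of week 48 were far above the rest, and array 1 stood just over the highest week 20 array. Its relative Cidec had 96.8, 1486.3, 1396.1, 681.0 and 1833.3 at week 48 and 120.1, 77.9, 12.4, 254.6 and 199.5 at week 20 (2.77 ± 0.68, adjusted p = 0.00769). Dgat2, which makes triglyceride, fell by 0.47 ± 0.14 without overlap. All 3 rises were called without arrays 4 and 5, and 0 with the covariate.

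Of 15 fatty acid synthesis genes 0 rose and 2 fell (median -0.19), against 8.57% of all genes lower, both transcription factors: Srebf1 (-0.68 ± 0.23, adjusted p = 0.0458) and Mlxipl, the carbohydrate response factor ChREBP. Mlxipl had 2025.1, 2067.0, 1858.7, 1955.4 and 1946.2 at week 48 and 4075.1, 3266.7, 3474.9, 4507.7 and 2831.5 at week 20, a narrow week 48 group below every week 20 array (-0.86 ± 0.25, adjusted p = 0.0216). Both lost their calls after median centring, where the list had 1 higher and 0 lower (median 0.01), and 0 of the 15 were called without arrays 4 and 5 (median 0.14) or with the covariate. Of 16 cholesterol synthesis genes 0 were called (median -0.19, but 0.02 after median centring). Hmgcs1, which makes the precursor of mevalonate, had 12325.1, 15158.4, 15306.0, 20114.0 and 13137.9 at week 48 and 11620.7, 13216.9, 15409.9, 20309.1 and 13115.6 at week 20, with the groups almost superimposed (0.05 on the log2 scale). Acadm, the medium-chain dehydrogenase of fatty acid oxidation, was the 1 of 19 oxidation genes called and did not overlap (0.40 ± 0.09, adjusted p = 0.00431).

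Pericentral genes that depend on beta-catenin were all below 0 in log2 change, 14 of 14 (median -0.52), and 3 fell (8.57% over all genes). Notum, a secreted Wnt inhibitor, had 573.0, 668.4, 440.7, 356.0 and 232.1 at week 48 and 977.8, 927.7, 1101.6, 1079.1 and 814.7 at week 20, without overlap (-1.16 ± 0.24, adjusted p = 0.00176). Sp5, a transcription factor induced by Wnt (-1.30 ± 0.39, adjusted p = 0.0249), and Cyp1a2, a pericentral P450 (-1.13 ± 0.35, adjusted p = 0.0291), fell with overlap. Without arrays 4 and 5, 0 of the 14 were called and the median was -0.18, and with the covariate 0 were called at a median of -0.14.

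Of 17 retinoid genes measured 1 rose and 2 fell, against 4.89% and 8.57% of all genes: Rara, a retinoic acid receptor (1.503 ± 0.42, adjusted p = 0.0164), against Lrat and Rxrb, a retinoid X receptor (-0.51 ± 0.17, adjusted p = 0.0415). Rara had 89.1, 95.9, 149.5, 66.6 and 117.4 at week 48 and 13.6, 11.9, 77.9, 53.1 and 5.9 at week 20. Cyp26a1, the enzyme that clears retinoic acid and a direct target of its receptors, had 2898.1, 3727.5, 1431.3, 3065.8 and 1314.6 at week 48 and 3572.6, 2452.9, 1620.8, 2026.8 and 2599.2 at week 20, fully overlapping (-0.05 ± 0.32, adjusted p = 0.938). Rarb, another receptor gene that retinoic acid induces, likewise overlapped (-0.04 ± 0.23, adjusted p = 0.928). The list had 2 higher and 0 lower after median centring and 0 called without arrays 4 and 5, and Rara lost its call there (adjusted p = 0.091), with the covariate (adjusted p = 0.144) and with these arrays alone (adjusted p = 0.0564).

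The age change under peretinoin was next set against that of basal-diet transgenic mice, where 2063 genes were called (15.7%; 785 higher, 1278 lower). In the same direction 604 genes were called in both, 205 higher and 399 lower, which is 34.3% of the peretinoin calls and 29.3% of the basal-diet calls, and 9 were called in opposite directions. Across the 13099 genes, which are not independent, Pearson's r of the 2 changes was 0.45. Of wild-type liver's 901 calls (6.88%), 265 were shared in direction (15% of the peretinoin calls and 29.4% of the wild-type calls), with r = 0.31. Genes called the same way in all 3 age comparisons numbered 165, among them Ceacam1 (log2 changes of 1.48 under peretinoin, 1.19 on the basal diet and 1.21 in wild type), Serpinb1a (2.48, 1.47 and 2.37) and Manf, an endoplasmic reticulum stress factor (0.85, 1.04 and 1.04).

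The difference between the peretinoin and the basal-diet age change passed the test in 89 genes (0.679%), 40 with a higher (0.305%) and 49 with a lower (0.374%) age change under peretinoin. Of these 49 were called in the basal-diet comparison alone and 29 in the peretinoin comparison alone. Between the diets 51 of the 89 were called at week 20 and 15 at week 48. The gene of smallest p, 1810008I18Rik, is a transcript of unknown role. It had 1318.6, 1198.7, 1222.7, 1059.9 and 808.5 at week 48 and 1220.9, 1625.0, 1237.5, 1390.0 and 1000.3 at week 20 under peretinoin. Basal-diet livers had 2586.4, 1731.4, 3905.1, 3442.0 and 3311.9 at week 48 and 277.3, 381.0, 589.6, 962.2 and 743.4 at week 20 (difference -2.59 ± 0.39, adjusted p = 0.00263). The peretinoin groups overlapped, while the basal-diet groups were far apart.

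Serpina7, which encodes thyroxine-binding globulin, had 11789.9, 11101.0, 12264.5, 6881.1 and 6150.9 at week 48 and 11853.3, 13315.6, 17821.1, 10174.0 and 7992.5 at week 20 under peretinoin. On the basal diet it had 16235.5, 12706.2, 13339.3, 10596.6 and 15141.7 at week 48 and 1888.2, 1814.4, 2004.6, 5294.2 and 4891.2 at week 20 (difference -2.60 ± 0.43, adjusted p = 0.006). The week 20 basal-diet arrays were the low group, below all 15 others. Trim24, a coregulator of retinoic acid receptors, had 907.6, 918.9, 669.8, 667.3 and 1039.2 at week 48 and 396.0, 499.5, 486.2, 731.1 and 982.2 at week 20 under peretinoin. Its basal-diet arrays ran the other way, with 701.0, 434.1, 458.9, 446.6 and 457.6 at week 48 and 1457.8, 1316.8, 1088.9, 826.3 and 890.7 at week 20 (difference 1.61 ± 0.30, adjusted p = 0.0135). A dimmer Trim24 probe set gave a log2 change of -0.121 under peretinoin, against 0.485 for the one used. Ripk4, a kinase of epidermal differentiation, had 474.0 to 623.0 at week 48 and 413.0 to 700.7 at week 20 under peretinoin, against 373.9 to 457.2 and 660.1 to 1011.3 on the basal diet (difference 1.12 ± 0.20, adjusted p = 0.0135).

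**Figure D4:**
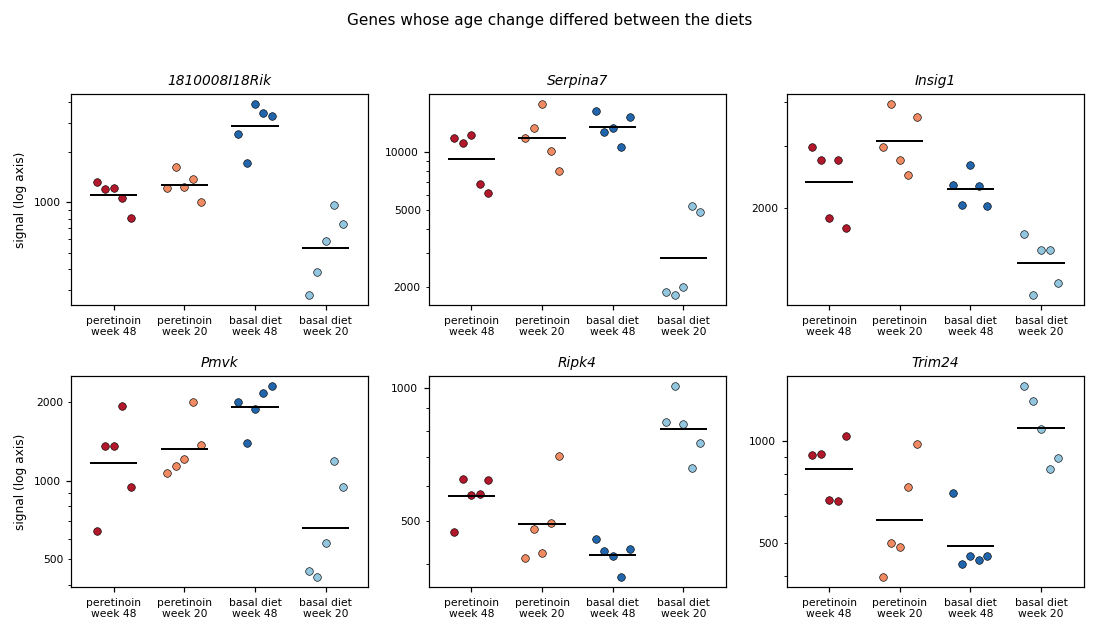
Signals (log axis) of 6 genes whose age change differed between the diets, each with 5 arrays of peretinoin week 48, peretinoin week 20, basal diet week 48 and basal diet week 20 from left to right, and a line at the geometric mean. In 1810008I18Rik, Serpina7, Insig1 and Pmvk the basal-diet week 20 arrays are low, and in Ripk4 and Trim24 they are high.

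Of the 16 cholesterol synthesis genes 2 were among the 89. In Insig1, the sterol sensor that holds back SREBP, the signals were 2986.1, 2745.8, 1885.9, 2746.2 and 1764.7 at week 48 and 2986.4, 3949.1, 2732.1, 2477.7 and 3621.7 at week 20 under peretinoin, against 2274 ± 257 and 1423 ± 232 (SD, n = 5 each) on the basal diet (difference -1.07 ± 0.20, adjusted p = 0.0135). Pmvk, phosphomevalonate kinase, gave a difference of -1.70 ± 0.36 (adjusted p = 0.0286). Sc5d, a sterol desaturase of the same pathway outside that list, chosen after its values were seen, was another (-0.17 under peretinoin, 0.75 on the basal diet, difference -0.92, adjusted p = 0.0455). The 16 genes of the list had 5 rises and 0 falls on the basal diet (median 0.93), where 5.99% of all genes rose. In wild type 1 rose and 0 fell (median 0.55), where 2.41% of all genes rose. Under peretinoin 0 rose and 0 fell (median -0.19). Cpt2, a carnitine palmitoyltransferase of fatty acid oxidation, differed in the other direction, with 4670.8, 4215.7, 3655.6, 4121.3 and 4167.4 at week 48 and 3054.3 to 3679.2 at week 20 under peretinoin, against 2894 ± 653 and 3862 ± 457 on the basal diet (difference 0.72 ± 0.16, adjusted p = 0.0328).

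Over the 22 genes of the matrix list the median difference from the basal-diet age change was 0.22, with 0 called higher and 1 lower, Thbs2. Abi3bp, which is outside that list, fell more under peretinoin (difference -1.65 ± 0.36, adjusted p = 0.0286). Thbs2 fell under peretinoin but not on the basal diet (log2 change 0.112 there, difference -1.42 ± 0.35, adjusted p = 0.0442). Thbs2 in basal-diet livers averaged 370.1 ± 63.7 at week 48 and 347.3 ± 97.6 at week 20 (SD, n = 5 each). Epha3 gave -1.61 ± 0.39 (adjusted p = 0.0442). Small opposite changes were called in Dcps, an mRNA cap scavenging enzyme (-0.48 under peretinoin, 0.36 on the basal diet, difference -0.83 ± 0.14, adjusted p = 0.006), and in Rpa3, a subunit of the single-strand DNA binding complex (-0.34 and 0.54, difference -0.88 ± 0.16, adjusted p = 0.0135). Hectd2os, an antisense transcript (difference -3.45 ± 0.65), and Zfp983, a zinc finger gene (-1.28 ± 0.24), were the other 2 of the 8 smallest p, both at adjusted p = 0.0135. The clock genes, of which 4 rose and 9 fell on the basal diet, had 0 rises and 1 fall under peretinoin (Per3, -1.45 ± 0.39), and 0 of their 15 differences passed. In wild type 4 of the 15 rose and 4 fell. The shares of all genes that rose and fell were 4.89% and 8.57% under peretinoin, 5.99% and 9.76% on the basal diet, and 2.41% and 4.47% in wild type. In 11 of the 15 clock genes the peretinoin arrays 4 and 5 stood apart from arrays 1 to 3 at both ages, on opposite sides. Without a labelled hour of sampling, diet and hour cannot be told apart in the 89 genes or in the cholesterol synthesis list. The count of 89 was 10 with the covariate and 301 without arrays 4 and 5, and leaving out 1 array gave 11 (without array 3 of basal-diet week 20) to 215 (without array 4 of the same group).

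**Figure D5:**
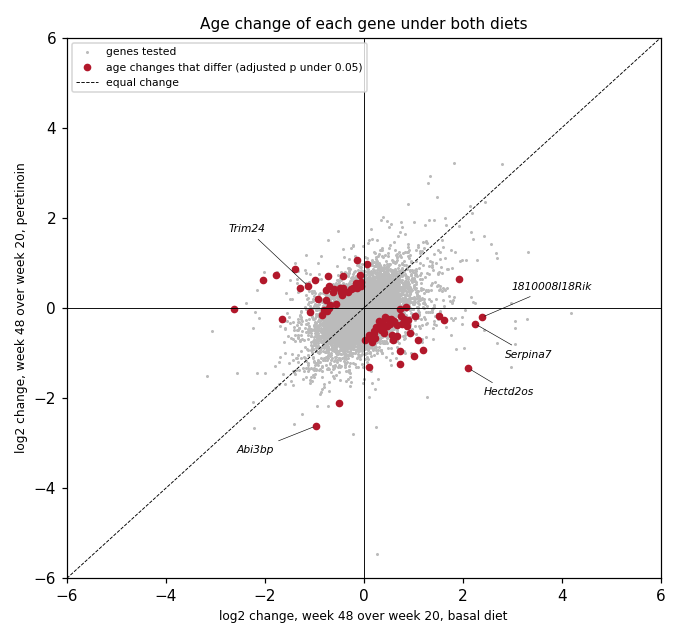
Log2 change from week 20 to week 48 of 13099 genes, under peretinoin (vertical axis) and on the basal diet (horizontal axis), with the 89 genes whose changes differ in red and a dashed line of equal change. Red points lie mostly where the 2 changes have opposite signs, with Abi3bp among the few that fell under both diets.

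Against the age change of wild-type liver 90 genes differed (0.687%), 27 higher (0.206%) and 63 lower (0.481%) in the peretinoin-fed mice, and 62 of them were called in the peretinoin comparison alone. Abi3bp changed by -2.62 under peretinoin and -0.03 in wild type (difference -2.59 ± 0.37, adjusted p = 0.000734), Adamtsl2 by -1.38 and 0.57 (difference -1.95 ± 0.36, adjusted p = 0.0148), and Ltbp3 by -0.74 and 0.57 (difference -1.31, adjusted p = 0.0148). Itgb8 (difference -2.17 ± 0.46, adjusted p = 0.0305), Epha3 (-2.07 ± 0.41, adjusted p = 0.0198) and Thbs2 (-1.57 ± 0.36, adjusted p = 0.0405) passed as well. Vapb changed by 1.76 and -0.58 (difference 2.33 ± 0.45, adjusted p = 0.0164).

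Cell cycle inhibitors of the wild-type liver gave differences of another kind. Cdkn2c, the p18 inhibitor of cyclin D kinases, had 681.1 to 1281.9 at week 48 and 805.8 to 1103.5 at week 20 under peretinoin, beside means of 226.7 and 604.1 in wild type (difference 1.46 ± 0.24, adjusted p = 0.00404). Gmnn, geminin, which limits DNA replication to once per cycle, had 711.8 to 1066.8 at week 48 and 781.9 to 1104.4 at week 20 under peretinoin, beside 381.1 and 881.1 in wild type (difference 1.14 ± 0.21, adjusted p = 0.0164). Ogt, the enzyme that adds O-GlcNAc to proteins, fell under peretinoin with 1272.1, 1045.6, 973.3, 1025.2 and 1036.0 at week 48 and 1876.2, 1389.9, 1646.6, 2154.0 and 2118.9 at week 20 (-0.76 ± 0.13, difference from wild type -0.996, adjusted p = 0.0164). The other Ogt probe sets gave log2 changes of -1.487 to -0.297 under peretinoin. Rnf130, a ubiquitin ligase, rose by 0.49 ± 0.08 without overlap, but its sign turned when its 4 probe sets were averaged (-0.20). The count of 90 was 879 after median centring, 3 with these arrays fitted alone, and between 11 (without array 3 of wild-type week 48) and 230 (without array 1 of peretinoin week 48) when 1 array was left out.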

How the data were processed

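RNA of 34 liver and tumour samples was measured on Affymetrix arrays. The deposited intensity values are linear probe set signals. The submitters' processing notes name MAS5 as the tool, without a version. In the deposited columns each array's 2% trimmed mean is near the same value, so levels are relative to an array's total. No per-sample column was left unused (0).

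Signals were taken as log2(signal + 16), an offset that shrinks changes of dim genes. Control probe sets were left out, the brighter 60% of probe sets with exactly 1 gene symbol were kept, and the probe set of highest mean stood for its gene. limma 3.58.1 in R 4.3.3 fitted 1 mean per group over all 34 arrays with eBayes (trend), and Benjamini-Hochberg adjusted p-values (two-sided, under 0.05) cover all 13099 genes. All adjusted p-values here are from limma. ± after a log2 change is the standard error. A difference between age changes is a contrast in the same fit. The number of arrays limits the precision. The procedure was tested on simulated data.

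Genes named are the 15 largest rises and 15 largest falls without overlap, 17 genes fixed in a panel, the 3 members of smallest p in each of 46 lists, the 8 genes of smallest p in each difference, and further list members where a sentence needs them. The members and lists were chosen with earlier results of these data known. Alternatives covered the offset, normalisation, filter, probe sets, arrays alone, replicate block, weights, single arrays, muscle arrays, arrays 4 and 5, and the Actb ratio. The last 3 were added after seeing the data.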

Additional observations from a re-analysis of the deposited data

Results flagged for a closer look

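In 10 of 120 gene and group pairs examined, 1 of the 5 arrays lay far from the other 4 (gap over range above 0.71, which chance gives in about 1 in 20 groups). At week 48 these were Ceacam1 in array 4 (1667.8), Serpina4-ps1 in array 5 (20.5), Prap1 in array 3 (15.8), Pdgfc in array 3 (506.4) and Ogt in array 1 (1272.1). At week 20 they were Slc22a27 in array 3 (15.1), Mtnr1a in array 5 (81.6), Tnnt2 in array 5 (312.7), Afp in array 3 (393.7) and Cdk1 in array 3 (63.4). The mean log2 signal of skeletal muscle genes stood apart in array 1 of week 48, at 13.12.

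The age change under peretinoin differed from that on the basal diet, by the contrast of the 2 changes, in 1810008I18Rik (-2.59), Serpina7 (-2.6), Dcps (-0.83), Rpa3 (-0.88), Hectd2os (-3.45) and Zfp983 (-1.28), which were lower, and in Ripk4 (1.12) and Trim24 (1.61), which were higher. It differed from that of wild type in Abi3bp (-2.59), Ltbp3 (-1.31), Adamtsl2 (-1.95) and Ogt (-1), which were lower, and in Cdkn2c (1.46), Rnf130 (0.68), Gmnn (1.14) and Vapb (2.33), which were higher.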

How the results depend on the processing

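The count of 1762 genes was 573 with the 10 arrays alone, 430 with a replicate block in that fit, 617 without arrays 4 and 5, 424 with the Actb ratio as a covariate, and 1125 (without array 5 of week 48) to 2236 (without array 1 of week 48) when 1 array was left out. The 89 differences from the basal diet became 48 after median centring, 136 with the upper 40% of probe sets, 48 without a filter, 54 with mean probe sets, 27 with these arrays alone, 19 with the replicate block, 407 with array weights, 301 without arrays 4 and 5, 10 with the covariate, and 11 to 215 with 1 array left out. The 90 differences from wild type became 879 after median centring, 36 without a filter, 160 with mean probe sets, 3 alone, 3 with the replicate block, 142 without muscle arrays, 31 without arrays 4 and 5, and 11 to 230 with 1 array left out. Same-numbered arrays of the 2 ages did not deviate together (r of -0.122 to 0.089 over 5 pairs, 1 array best with its own number). These correlations cannot show whether equal numbers share a litter or day, which the labels do not give. In 11 of 15 clock genes arrays 4 and 5 stood apart from arrays 1 to 3 at both ages, on opposite sides.

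The peretinoin change turned sign for called genes with mean probe sets (Rnf130 -0.197, Tgfbr1 0.256), and otherwise for genes not called. These were, after median centring, Ccnd1 (0.148), Cyp26a1 (0.157), Rarb (0.166), 1810008I18Rik (0.003) and Gmnn (0.178). Others were Cd163 with an offset of 64 (-0.002), Rarb after quantile normalisation (0.028), and Acta2 (-0.057), Rarb (0.094) and Gmnn (0.013) with weights. Without muscle arrays they were Cd163 (-0.375), Rarb (0.398) and Gmnn (0.041). Without arrays 4 and 5 they were Acta2 (-0.26), Mki67 (-0.042), Ccnd1 (0.052), Cyp26a1 (0.041) and Gmnn (0.028). With the covariate they were Acta2 (-0.377), Cdk1 (-0.081), Mki67 (-0.54), 1810008I18Rik (0.172), Serpina7 (0.296), Ripk4 (-0.073) and Cdkn2c (-0.089). The cause was not tested. Leaving out 1 array gave -0.227 to 0.146 for Cyp26a1, -0.107 to 0.231 for Acta2, -0.374 to 0.192 for Ccnd1, -0.361 to 0.376 for Cd163, -0.223 to 0.252 for Rarb and -0.095 to 0.048 for Gmnn.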

Other observations

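Other gene groups are given by their members called, where 4.89% of all genes were higher and 8.57% lower. Among interferon response genes 1 of 12 fell, Ifit1 (-0.89 ± 0.20), and among endothelial markers 1 of 14, Eng, a TGF-beta coreceptor (-0.73 ± 0.21). Sox9, a transcription factor of bile duct and progenitor cells, was the 1 of 9 such markers that rose (1.01 ± 0.29). Of 10 iron genes 2 rose, Tfr2 (0.36 ± 0.12) and Hfe (0.32 ± 0.09), both upstream of hepcidin, and the hepcidin gene copy Hamp2 fell (-1.42 ± 0.36). Of 16 endoplasmic reticulum stress genes Manf rose and Asns, asparagine synthetase, fell (-1.58 ± 0.46). In the IGF group Igf2r, a scavenger receptor for IGF2, rose (0.67 ± 0.19), while Ghr and Igf1r fell. H2-Ob, of MHC class II presentation (-1.02 ± 0.29), Ier2, an immediate early gene (-0.75 ± 0.26), Gstp1, a glutathione transferase (-0.32 ± 0.10), C8b, a terminal complement component (-0.58 ± 0.17), Tspan33, a tetraspanin of red cell precursors (-0.88 ± 0.24), and Kdm5d, a Y-linked demethylase (-0.52 ± 0.17), each fell as the 1 such member of its list. Cyp3a13, a cytochrome P450, rose (0.61 ± 0.16). Markers of pancreatic acinar cells (10), adipocytes (5) and skeletal muscle (11) gave 0 calls. In all, 36 of 46 lists had a member called, 7 only higher, 18 only lower and 11 both.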
